A study of Mus musculus with 12 samples.

Results

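The 6 genes described here were the metallothioneins Mt1 and Mt2, the zinc-sensing transcription factor Mtf1 and the zinc transporters Slc30a1, Slc39a1 and Slc39a10, chosen by symbol from the 38739 gene symbols of the expression table. All 6 were listed and all 6 passed the filter on low values. Macrophages grown from mouse bone marrow were profiled by RNA-seq in 12 libraries, 3 in each of 4 groups: wild-type untreated (WT UT), wild-type with lipopolysaccharide (WT LPS), cGAS knockout untreated (cGAS-/- UT) and cGAS knockout with lipopolysaccharide (cGAS-/- LPS). LPS is the cell wall component of Gram-negative bacteria, and cGAS senses DNA in the cytosol. The knockout mice lacked the gene in the whole body, and per the methods both genotypes were male mice of 8 weeks on the C57BL/6J background. The labels give 100 ng/mL of LPS for 1 h and the methods of the study give 150 ng/mL for 24 h, so the length of exposure behind the values below is not settled. The labels' extraction protocol speaks of neutrophils, whereas the cell type field gives macrophages. The replicates are described as technical in a figure legend of the study and no label names separate animals, so p-values measure the spread between these libraries.

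Metallothioneins are small cysteine-rich proteins that bind zinc and copper and buffer the free zinc of the cell. Their transcription is driven by MTF-1, the product of Mtf1, which binds metal response elements in promoters when zinc rises. Slc30a1 (ZnT1) exports zinc from the cytoplasm across the plasma membrane, while the Slc39 family (ZIP proteins) brings zinc into the cytoplasm. In macrophages exposed to bacterial products these genes are known as part of the handling of zinc that starves or poisons microbes.

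Mt2 lies at chr8:94898819-94900207 and Mt1 at chr8:94905710-94906955 on the plus strand of GRCm39, with 5502 bases between them. Slc30a1 lies at chr1:191638808-191645361 and Slc39a10 at chr1:46845872-46964964, the latter on the minus strand. Mtf1 lies at chr4:124695897-124743593 and Slc39a1 at chr3:90155138-90160924. Mt2, Mtf1, Slc30a1, Slc39a1 and Slc39a10 overlap annotated genes on the opposite strand, and whether the quantification used strand is not given in the sources used here, although the library kit keeps it. Mtf1 also overlaps Gm56097 on its own strand, and Slc39a10 overlaps Gm28151, Gm37393 and Gm28527 on its own, which strand would not separate. Slc39a1 shares 973 bases at 97.7% identity with the pseudogene Slc39a1-ps, which was listed at 0 to 0.257 TPM, so reads could be split between them. No match of 31 bases or more at 90% identity was found between the transcripts of Mt1 and Mt2.

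Stretches before the metallothionein genes and Slc30a1 are shown because they hold the core of the metal response element, the sequence that MTF-1 reads. They were taken from the 250 bases before the start of each gene in RefSeq (GRCm38.p6), run 5′ to 3′ on the plus strand, and carry in capitals each match to TGCACNC or TGCGCNC on either strand. The same bases were found once each in GRCm39, and the positions given here are of that build. The RefSeq start lay 427 bases after the outermost start of Mt2 in GENCODE, given above, 7 after that of Mt1 and 85 after that of Slc30a1. The last 114, 7 and 85 of the 250 bases fell in exons of that annotation, so the stretches shown for Mt2 (chr8:94898996-94899131) and Mt1 (chr8:94905467-94905709) end before those exons. The matches inside exons are shown with 30 bases each, at chr8:94899185-94899214 for Mt2 and chr1:191638839-191638868 for Slc30a1.
Mt2: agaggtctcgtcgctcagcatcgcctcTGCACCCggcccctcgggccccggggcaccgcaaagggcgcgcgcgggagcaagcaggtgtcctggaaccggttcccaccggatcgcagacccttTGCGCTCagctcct
Mt2, second stretch: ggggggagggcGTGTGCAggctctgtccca
Mt1: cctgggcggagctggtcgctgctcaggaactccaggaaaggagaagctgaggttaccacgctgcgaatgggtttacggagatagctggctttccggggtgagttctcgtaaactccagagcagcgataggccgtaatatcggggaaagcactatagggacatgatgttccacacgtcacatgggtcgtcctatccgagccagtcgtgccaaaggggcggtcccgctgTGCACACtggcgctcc
Slc30a1: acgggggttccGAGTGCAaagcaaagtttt
Mt2 held 3 matches, which began 223, 128 and 50 bases before the RefSeq start, the last on the minus strand. Mt1 held 1 match 23 bases before its RefSeq start and Slc30a1 held 1 on the minus strand 43 bases before it. For each of these genes only the window before 1 RefSeq start was searched. Bases after that start were not searched, so these counts leave out any match before a later start. No match lay in the same window of Mtf1, of Slc39a1 or of the 2 listed promoters of Slc39a10. Of 32851 mouse promoters in the RefSeq table, 21.4% held at least 1 match, 5.17% at least 2 and 1.26% at least 3, so 1 match is common.

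Cgas, the deleted gene, was at 1.19 to 3.25 TPM in the 6 WT libraries and at 0.0703 to 0.291 TPM in the 6 cGAS-/- libraries. All 8 tested genes of a list of LPS-induced genes rose with LPS in both genotypes. Of 9 macrophage markers, 7 were listed and above 0 in every group, while Csf1r and Adgre1 were not listed. The 7 markers summed to 16810 to 34130 TPM, mostly Lyz2 (15701 to 33426 TPM). Among them Mrc1 was 10.6-fold and Cd68 3.18-fold lower with LPS in WT and 13.2-fold and 4.33-fold lower in cGAS-/- cells, while Fcgr1 was 5.57-fold and 4.36-fold higher, and Mrc1 was also lower in cGAS-/- than in WT cells (3.21-fold in UT, 3.97-fold with LPS). Lyz2 was 1.74-fold higher in cGAS-/- LPS than in WT LPS (adjusted p = 0.0366), and Lyz2 (1.64-fold, adjusted p = 0.0167) and Itgam (3.16-fold, adjusted p = 0.0184) were higher with LPS in cGAS-/- cells. Mertk was 2.77-fold lower with LPS in WT (adjusted p = 0.0235) and Fcgr3 2.31-fold lower in cGAS-/- cells (adjusted p = 0.0427). B cell markers differed between groups, at 110 to 135 TPM in WT UT, 30.8 to 45.8 in WT LPS, 20.4 to 29.2 in cGAS-/- UT and 3.32 to 9.28 in cGAS-/- LPS. Of these, Ighm was lower with LPS (9.78-fold in WT, 9.94-fold in cGAS-/-) and Igkc was lower in cGAS-/- UT than in WT UT (11.4-fold) and with LPS in WT (2.41-fold), whereas Cd79a was 1.80-fold higher with LPS in WT (adjusted p = 0.0368). Between genotypes with LPS, Igkc was 7.55-fold (adjusted p = 0.00508) and Cd79a 2.38-fold (adjusted p = 0.0379) lower in cGAS-/- cells. Neutrophil markers were at 139 to 213, 35.5 to 353, 52.9 to 126 and 46.4 to 60.01 TPM in the same order. Prtn3 was at 0 throughout WT LPS and Elane at 0 throughout cGAS-/- UT. Ngp, Ltf and Elane were 4.80-fold, 1.74-fold and 1.60-fold lower with LPS in WT (adjusted p up to 0.0188). They were 10.1-fold, 1.94-fold and 1.85-fold lower in cGAS-/- UT than in WT UT (adjusted p up to 0.0311). Camp was 4.07-fold higher with LPS in cGAS-/- cells (adjusted p = 0.0112). Summed erythroid markers reached at most 37.7 TPM, stromal markers 16.5, dendritic cell markers 2.23 and T and NK cell markers 0.616, and their part in the results below was not tested. Of the stromal markers, Dcn was 3.13-fold higher and Col1a1 1.48-fold lower with LPS in WT (adjusted p = 0.0237 and 0.0404). The dendritic cell marker Xcr1 was 2.11-fold higher with LPS in WT and 1.60-fold in cGAS-/- cells (adjusted p = 0.00307 and 0.0466). The WT LPS libraries stood apart from each other: the values of replicate 3 summed to 709802 against 447189 to 503156 in the other 11, and 31.7% of that sum was the ferritin pseudogene Fth-ps3. In bulk RNA, fewer cells of a type and less RNA per cell cannot be told apart.

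The zinc exporter Slc30a1 was 3.09-fold and the zinc importer Slc39a10 2.61-fold lower with LPS in WT cells, and 3.01-fold and 2.54-fold lower in cGAS-/- cells. The metallothioneins were lower in all 3 cGAS-/- LPS libraries than in cGAS-/- UT, as were 40.2% of all genes. They were also lower in replicates 2 and 3 of WT LPS, but not in replicate 1. In the fit across all 12 libraries they did not pass the test. Mtf1 and Slc39a1 did not pass the test in any comparison. Values were taken, from their form, as TPM averaged over the transcripts of a symbol, TPM being a level corrected for transcript length and library total. Fold changes are on the scale of log2(TPM + 1), fitted with limma over 11887 genes in all 12 libraries, and a gene passed the test at an adjusted p under 0.05.

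**Figure D1:**
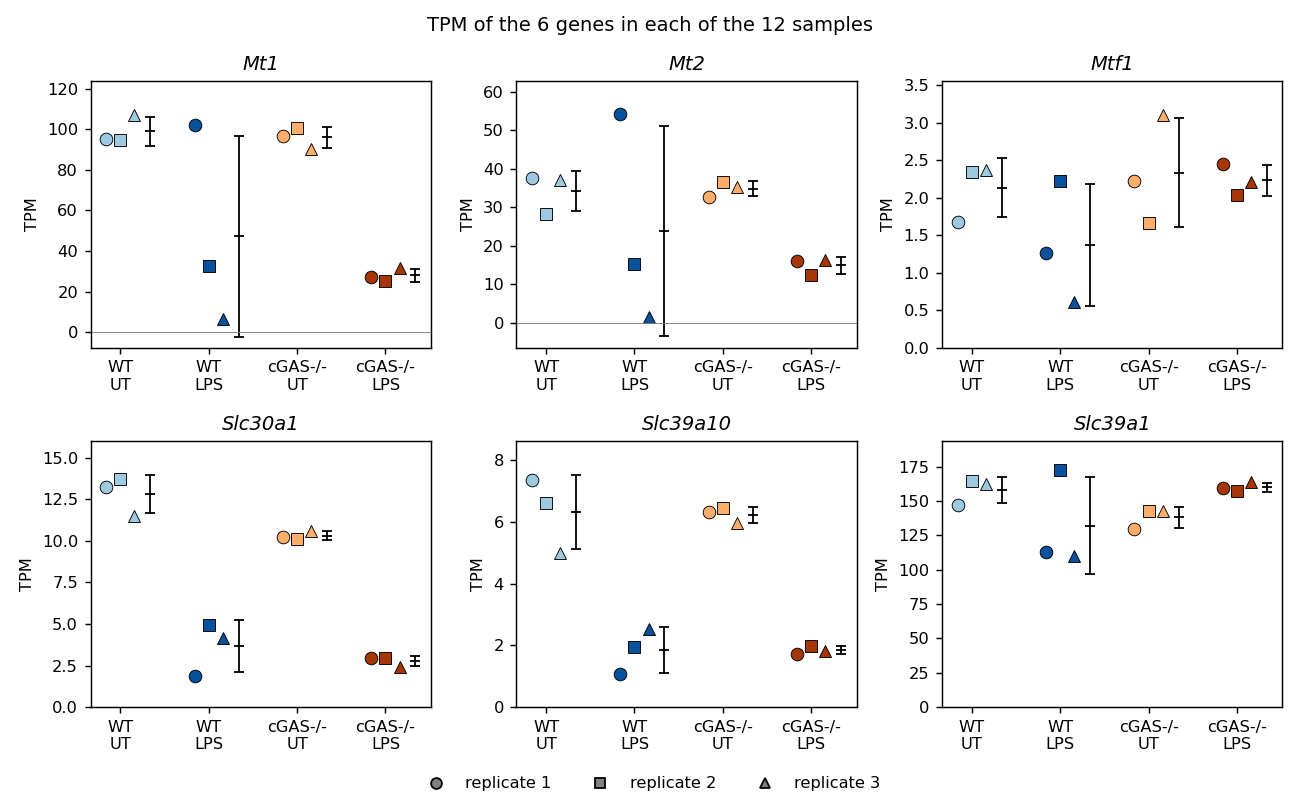
TPM of the 6 genes (y axes, linear, each gene on its own scale) in the 4 groups (x axis), with 1 point per library shaped by replicate number and, beside the points, the group mean with an error bar of 1 SD (n = 3). Slc30a1 and Slc39a10 were lower in all LPS than in all UT libraries of each genotype, as were 32.9% of all genes in WT and 40.2% in cGAS-/- cells. Mt1 and Mt2 spread widely across WT LPS, from 6.64 to 102 TPM and from 1.59 to 54.2 TPM.

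With LPS in WT cells, 2 of the 6 genes passed the test, both lower, where 27.6% of all genes passed and 23.3% passed as lower. In cGAS-/- cells the same number passed, again both lower, where 13.8% of all genes passed and 9.06% passed as lower. The median change of the 6 genes was -1.39 in WT and -1.26 in cGAS-/- cells on the log2 scale, beside -0.46 and -0.20 for all genes tested. Less that median of all genes, Slc30a1 differed by -1.17 and -1.39, Slc39a10 by -0.92 and -1.15, Mt1 by -1.28 and -1.54, Mt2 by -0.94 and -0.98, Mtf1 by 0.0063 and 0.18 and Slc39a1 by 0.17 and 0.41 in WT and cGAS-/- cells. None of the 6 genes also reached the log2 fold change of 2 that the methods of the study require, which 4.32% of all genes did in WT and 3.5% in cGAS-/- cells.

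Slc30a1, the exporter, was at 13.2, 13.7 and 11.5 TPM in WT UT and at 1.90, 4.93 and 4.14 TPM in WT LPS. It was at 10.2, 10.1 and 10.6 TPM in cGAS-/- UT and at 2.95, 2.96 and 2.41 TPM in cGAS-/- LPS. The LPS and UT libraries did not overlap in either genotype, which held as a lower level for 32.9% of all genes in WT and 40.2% in cGAS-/- cells. Slc30a1 fell 3.09-fold with LPS in WT cells (log2 fold change -1.63, SE 0.26, adjusted p = 0.00114) and 3.01-fold in cGAS-/- cells (-1.59, SE 0.26, adjusted p = 0.00167). In the WT comparison the call was lost when each library was scaled to a common median (-0.93, adjusted p = 0.0734) and when the 6 WT libraries were fitted alone (adjusted p = 0.0562, where 6.02% of all genes passed), whereas the cGAS-/- call stayed under all 23 alternatives.

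Slc39a10, an importer of the ZIP family at the plasma membrane, was at 7.34, 6.61 and 4.99 TPM in WT UT and at 1.06, 1.94 and 2.54 TPM in WT LPS. It was at 6.30, 6.43 and 5.94 TPM in cGAS-/- UT and at 1.73, 1.99 and 1.81 TPM in cGAS-/- LPS. All LPS libraries were again below all UT libraries of their genotype, as for 32.9% of all genes in WT and 40.2% in cGAS-/- cells. Slc39a10 fell 2.61-fold in WT cells (log2 fold change -1.38, SE 0.23, adjusted p = 0.00132) and 2.54-fold in cGAS-/- cells (-1.35, SE 0.23, adjusted p = 0.002). Scaling to a common median ended both calls (-0.75, adjusted p = 0.156 in WT and -1.10, adjusted p = 0.0601 in cGAS-/-). The WT call was also lost with quantile normalization (-0.85, adjusted p = 0.0684) and with the 6 WT libraries alone (adjusted p = 0.0644).

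Mt1 was at 95.02, 94.7 and 107 TPM in WT UT and at 96.8, 101 and 90.4 TPM in cGAS-/- UT, so the untreated cells of both genotypes overlapped. With LPS it was at 27.4, 25.4 and 31.6 TPM in cGAS-/- cells, below every cGAS-/- UT library, as for 40.2% of all genes. In WT LPS it was at 102 TPM in replicate 1, 32.8 in replicate 2 and 6.64 in replicate 3, which spans the untreated level and a level 13.1-fold lower. The mean difference was -1.74 in both genotypes (SE 0.68, 3.34-fold lower), with an adjusted p of 0.0783 in WT and 0.133 in cGAS-/- cells.

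Mt2, the neighbouring metallothionein gene, was at 37.6, 28.3 and 37.0 TPM in WT UT, 32.8, 36.6 and 35.2 TPM in cGAS-/- UT and 16.1, 12.4 and 16.2 TPM in cGAS-/- LPS. In WT LPS it was at 54.2 TPM in replicate 1, above all untreated libraries, 15.3 TPM in replicate 2 and 1.59 TPM in replicate 3. The mean difference was -1.40 in WT (SE 0.80, adjusted p = 0.203) and -1.18 in cGAS-/- cells (SE 0.80, adjusted p = 0.419).

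The metallothionein result depended on the spread of WT LPS, which the fit over 12 libraries shares with the other groups. With the 6 cGAS-/- libraries fitted alone, Mt1 (-1.74, SE 0.09, adjusted p = 3.56e-05) and Mt2 (-1.18, SE 0.11, adjusted p = 0.000456) passed as lower, and 5 of the 6 genes passed, where 44.6% of all genes did. Slc39a1 was the one that rose in that fit (0.21, SE 0.05, adjusted p = 0.0169). In the shared fit, leaving out WT LPS replicate 3 brought Mt1 (adjusted p = 0.00231) and Mt2 (adjusted p = 0.0309) of cGAS-/- cells past the test, and leaving out WT LPS replicate 1 did so for Mt1 (adjusted p = 0.0224). For WT cells, Mt1 (-2.63, adjusted p = 0.00426) and Mt2 (-2.43, adjusted p = 0.0161) passed without WT LPS replicate 1 and differed by -0.76 and -0.22 without replicate 3. With median scaling they differed by -0.97 (adjusted p = 0.271) and -0.72 (adjusted p = 0.521), and with sample weights by -0.67 (adjusted p = 0.289) and -0.12 (adjusted p = 0.897). Of all genes, 30.8% passed in cGAS-/- cells without WT LPS replicate 3, 15.9% without WT LPS replicate 1, and 28.1% in WT cells without WT LPS replicate 1.

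The ratio of Mt1 to Mt2 was 2.53 to 3.35 in the 6 untreated libraries, 1.70 to 2.05 in cGAS-/- LPS, and 1.88, 2.14 and 4.18 in WT LPS replicates 1, 2 and 3. The ratio was lower in 5 of the 6 LPS libraries than in any untreated one. Its size does not rank the genes, since each value was taken as a mean over an unknown number of transcripts, of which the annotation holds 4 for Mt1 and 10 for Mt2. Across the 12 libraries the log2 levels of Mt1 and Mt2 had a Pearson r of 0.97, and those of Slc30a1 and Slc39a10 also 0.97, as descriptions over libraries that share their groups. Mt1 and Slc30a1 had an r of 0.58 over 12 libraries and 0.97 over the 9 outside WT LPS.

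Mtf1, which encodes the zinc-sensing activator, was at 1.68, 2.35 and 2.37 TPM in WT UT, 1.26, 2.23 and 0.606 TPM in WT LPS, 2.23, 1.67 and 3.11 TPM in cGAS-/- UT and 2.45, 2.04 and 2.22 TPM in cGAS-/- LPS. The groups overlapped in every comparison. The LPS difference was -0.45 in WT (SE 0.26, adjusted p = 0.202) and -0.02 in cGAS-/- cells (adjusted p = 0.977, 95% interval -0.60 to 0.55), and the signs turned with quantile normalization (0.06 and 0.21).

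Slc39a1, which encodes ZIP1, a broadly expressed zinc importer, was at 147, 164 and 162 TPM in WT UT, 113, 172 and 110 TPM in WT LPS, 129, 142 and 143 TPM in cGAS-/- UT and 159, 157 and 163 TPM in cGAS-/- LPS. The cGAS-/- LPS libraries lay above the cGAS-/- UT libraries, as for 15.5% of all genes, while WT LPS lay on both sides of WT UT. The LPS difference was -0.29 in WT (SE 0.23, adjusted p = 0.348; 0.52 with median scaling, adjusted p = 0.118) and 0.21 in cGAS-/- cells (SE 0.23, adjusted p = 0.643). Without WT LPS replicate 2, Slc39a1 (-0.49, adjusted p = 0.023) and Mtf1 (-0.71, adjusted p = 0.0253) passed as lower in WT, and both passed as higher in cGAS-/- LPS than in WT LPS (0.52, adjusted p = 0.0327 and 0.76, adjusted p = 0.032). In that fit 48.7% of all genes passed for LPS in WT cells and 27.9% between genotypes with LPS.

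**Figure D2:**
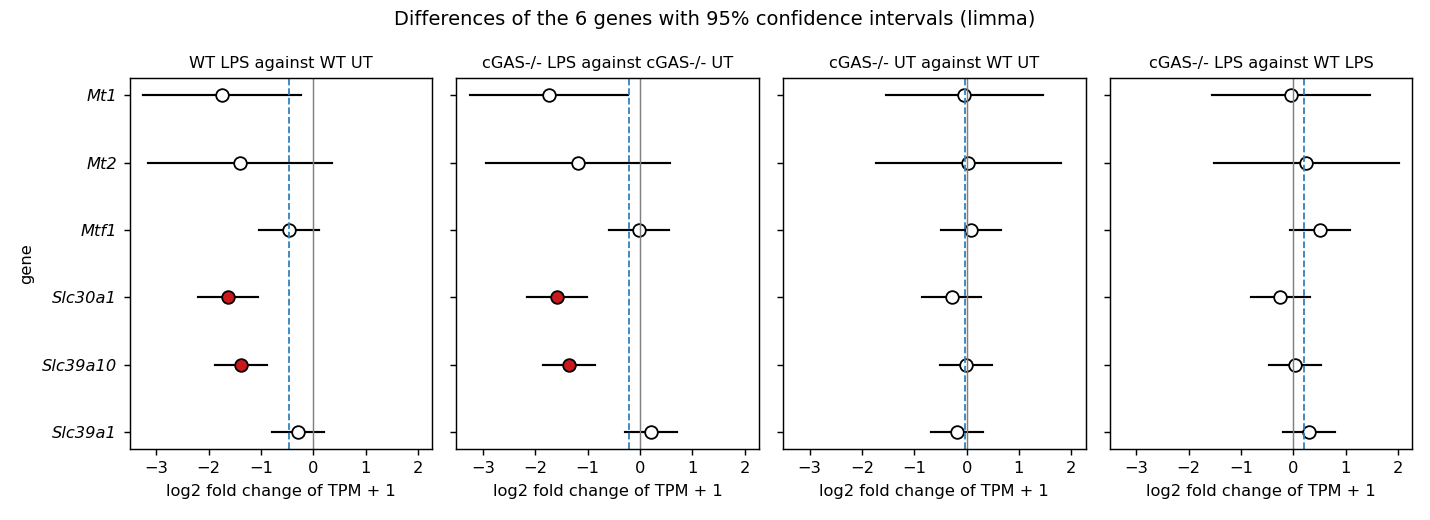
Log2 fold change of TPM + 1 (x axes) of each gene (y axis) in 4 comparisons, with the 95% confidence interval from limma as a line. Filled red points passed the test, open points did not, and the dashed blue line marks the median of all genes tested, which was -0.46, -0.20, -0.04 and 0.20 from left to right.

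The question of whether the loss of cGAS altered these genes was put to 3 comparisons, and limma called none of the 6 in any of them, with none at an unadjusted p under 0.05. In untreated cells 1.83% of all genes passed, with LPS 2.36%, and for the difference of the LPS responses 0.9%. Slc30a1 was lower in all cGAS-/- UT than in all WT UT libraries (-0.29, 95% interval -0.86 to 0.28, adjusted p = 1), as was Slc39a1 (-0.19, 95% interval -0.69 to 0.31, adjusted p = 1), where 18.4% of all genes did not overlap in that direction. With LPS, Mt1 differed by -0.04 (95% interval -1.55 to 1.46) and Slc30a1 by -0.24 (95% interval -0.81 to 0.32). The LPS responses differed by 0.00 for Mt1 (95% interval -2.13 to 2.13), 0.04 for Slc30a1 (95% interval -0.76 to 0.85) and 0.04 for Slc39a10 (95% interval -0.66 to 0.74).

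The WT LPS libraries also differed in how genes changed with transcript length. Among genes with a mean of at least 10 TPM in UT cells, the median change in WT LPS replicate 1 was -0.14 for median transcript lengths from 600 to under 1000 bases and -0.96 for 4000 bases or more. In replicate 3 it was -0.49 under 600 bases, -1.31 from 600 to under 1000 bases and -1.79 at 4000 bases or more, while replicate 2 lay between -0.34 and -0.13 and the cGAS-/- LPS libraries between -0.38 and -0.19. The median transcript length was 655 bases for Mt1 and 648 for Mt2, against 2367 for Slc30a1, 2660 for Slc39a1, 6092 for Slc39a10 and 7629 for Mtf1. Replicate 1, in which the metallothioneins were not lower, had its lowest Slc30a1 and Slc39a10 values (4.75-fold and 3.52-fold below the WT UT mean). In replicate 3, Mt1 was 13.1-fold and Mt2 13.5-fold below that mean, whereas Slc30a1 was 2.68-fold and Slc39a10 2.05-fold below it, the reverse of the order of length classes in that library. In replicate 2, Mt1 was 2.95-fold, Mt2 2.14-fold, Slc30a1 2.32-fold and Slc39a10 2.46-fold below that mean, and the cGAS-/- LPS libraries were 2.97-fold to 3.67-fold, 2.08-fold to 2.67-fold, 2.86-fold to 3.32-fold and 2.41-fold to 2.65-fold below their own. The part of transcript length in the spread of Mt1 and Mt2 was not tested.

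**Figure D3:**
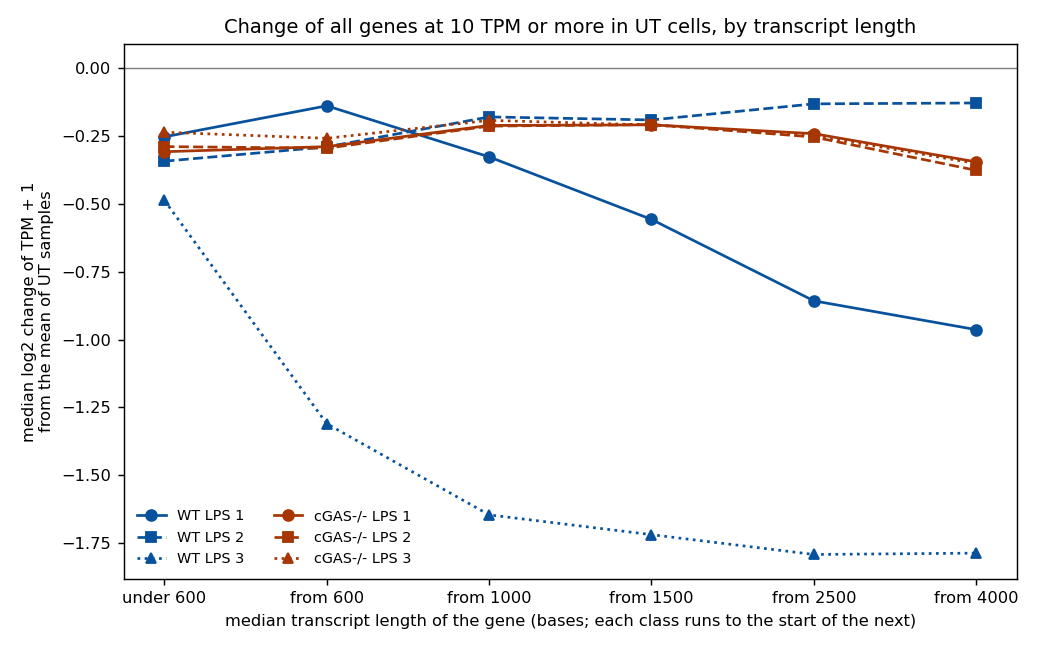
Median log2 change of TPM + 1 from the mean of the UT libraries of the same genotype (y axis) for genes grouped by median transcript length (x axis, bases), 1 line per LPS library. WT LPS replicates 1 and 3 reach -0.96 and -1.79 in the class from 4000 bases, while WT LPS replicate 2 and the 3 cGAS-/- LPS libraries stay between -0.38 and -0.13.

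Of 24 other zinc transporters and metallothioneins, 16 were listed and 8 were tested. With LPS, 4 passed as lower and 0 as higher in WT, and 2 as lower and 1 as higher in cGAS-/- cells, while limma called 0 between genotypes in UT cells or with LPS. Among all genes, 23.3% passed as lower and 4.31% as higher in WT, and 9.06% as lower and 4.76% as higher in cGAS-/- cells. Mt4, a metallothionein of squamous epithelium, was listed at 0 in every library, and Mt3, the brain metallothionein, was at 0 in all but 3. Slc30a4 (ZnT4), which moves zinc into vesicles, was at 2.87 to 3.45 TPM in WT UT and at 0, 0.771 and 0 in WT LPS, and at 3.43 to 4.39 and 1.19 to 1.35 TPM in cGAS-/- UT and LPS. It fell in both genotypes (-1.81, adjusted p = 0.000245 and -1.13, adjusted p = 0.00594). Slc39a8 (ZIP8), an importer of zinc and manganese, also fell in both (-1.08, adjusted p = 0.00216 and -1.20, adjusted p = 0.0014), from 1.78 to 1.94 TPM in cGAS-/- UT to 0.206 to 0.309 TPM in cGAS-/- LPS. Slc39a11 (-1.37, adjusted p = 0.0145) and Slc39a9 (-0.77, adjusted p = 0.0324), ZIP proteins of the Golgi, fell in WT cells. Slc39a13 (ZIP13), an intracellular zinc transporter, rose in cGAS-/- cells from 3.41 to 3.96 TPM to 7.83 to 8.86 TPM (1.01, adjusted p = 0.0226). Slc30a4 in WT and Slc39a8 in cGAS-/- cells passed under every alternative tried, whereas each other call was lost under 1 or more. Leaving out 1 library ended the call of Slc39a9 in 9 of 12 such fits, all but those without WT LPS replicates 2 and 3 and cGAS-/- UT replicate 3 (adjusted p up to 0.0991), that of Slc39a13 in 6 (each of the 6 cGAS-/- libraries, up to 0.0888) and that of Slc39a11 in 1 (without WT UT replicate 1, 0.0542). Slc39a9 also did not pass with median scaling (-0.33, adjusted p = 0.127) or quantile normalization (-0.26, adjusted p = 0.189). Slc39a13 did not pass with a common total (0.0662), nor Slc39a11 with sample weights (0.0515) or the WT libraries fitted alone (0.125).

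Of 5 other genes linked to MTF-1, 4 were tested. Csrp1, a LIM domain protein of the cytoskeleton, fell in both genotypes (-1.95, adjusted p = 0.00187 in WT and -1.39, adjusted p = 0.0176 in cGAS-/-). In cGAS-/- cells Gclc, the catalytic subunit of glutathione synthesis, fell (-1.15, adjusted p = 0.0358) and the selenoprotein Selenow rose (2.34, adjusted p = 0.0484), and leaving out 1 library ended each of these calls in 9 of 12 fits, those without any 1 WT UT or cGAS-/- library (adjusted p up to 0.123 and 0.134). The Gclc call was also lost with no filter (adjusted p = 0.0637), median scaling (0.379) and quantile normalization (0.145). The Selenow call was also lost with a pseudocount of 0.1 (0.0571), no filter (0.117), a common total (0.0814) and a block for replicate number (0.0607). The cGAS-/- call of Csrp1 was lost in 5 of 12 such fits (up to 0.0724), those without any 1 cGAS-/- library other than cGAS-/- LPS replicate 2. Its WT call was lost with the WT libraries fitted alone (0.0594). Selenow was at 50.5 to 62.9 TPM in cGAS-/- UT and 279 to 303 TPM in cGAS-/- LPS. In WT UT it was at 180 to 203 TPM, and in WT LPS at 742, 490 and 59.6 TPM. Of 10 genes of zinc and copper binding or transport, 6 were tested. The copper transporter Slc31a2 rose in both genotypes (1.69, adjusted p = 0.0227 and 2.97, adjusted p = 0.0014), from 11.1 to 12.5 TPM to 93.8 to 106 TPM in cGAS-/- cells. Slc31a1 (CTR1), the main copper importer, rose in cGAS-/- cells from 14.8 to 17.4 TPM to 85.7 to 89.4 TPM (2.38, adjusted p = 0.00628), and in WT LPS it was at 58.3, 84.8 and 15.2 TPM (1.29, adjusted p = 0.0658). Slc11a1 (NRAMP1), the phagosomal metal transporter, rose in cGAS-/- cells (0.94, adjusted p = 0.0251), a call lost without any 1 of the 6 cGAS-/- libraries (adjusted p up to 0.101). The WT call of Slc31a2 was lost without any 1 of the WT UT libraries or WT LPS replicate 1 (adjusted p up to 0.0681). It was also lost with a common total (0.0577) and with the WT libraries fitted alone (0.16). A common total ended the Slc11a1 call as well (0.0905). The difference of the LPS responses did not pass for any of these genes.

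**Figure D4:**
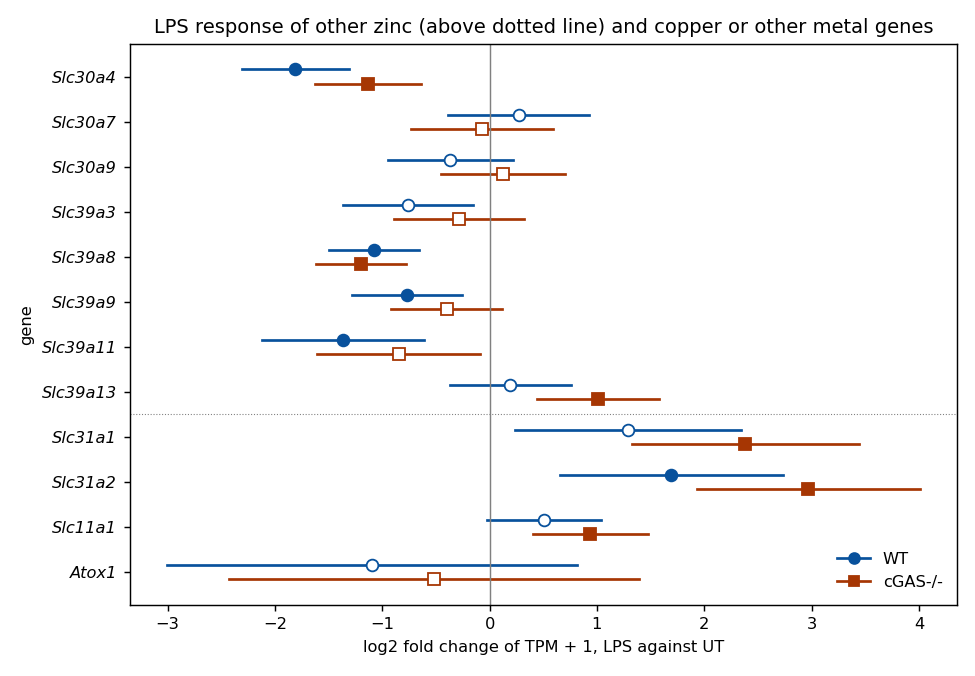
Log2 fold change of TPM + 1, LPS against UT (x axis), with 95% confidence intervals for 8 other zinc genes above the dotted line and 4 copper or other metal genes below it (y axis), WT as circles and cGAS-/- as squares, filled where the test was passed. Slc30a4 and Slc39a8 lie below 0 and Slc31a2 above 0 in both genotypes.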

How the data were processed

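Expression was measured by RNA-seq in 12 libraries of bone marrow-derived macrophages, 3 per group. Per the labels and methods, the authors used fastp, STAR, kallisto and GRCm39, and versions are not given in the sources used here. The values the authors deposited were taken, from their form, as TPM averaged over the transcripts of a symbol; the number averaged is not given, the read depth is unknown, and no counting interval is given. The 12 columns were matched to samples by title. The table reaches only part of the genome, and listed genes outside it were not analysed here.

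For the filter alone, samples were rescaled to one total, and the 11887 genes at 1 TPM or more in 3 or more of the 12 samples were tested. Levels were log2(TPM + 1), with fold changes of low genes understated. Group means were fitted in limma 3.58.1 (R 4.3.3) with a trended variance, and p-values were Benjamini-Hochberg adjusted over all genes tested. The script was tested on simulated data. Transcripts were compared with blastn 2.17.0. Named were the 6 genes and each gene of 3 fixed lists (other zinc transporters, genes linked to MTF-1, zinc and copper handling) that passed the test, with Mt3 and Mt4, which were not tested, named after their values were seen, beside an LPS response list and 7 marker lists. The genes and lists were chosen with earlier results of these data known. Alternatives changed the pseudocount, filter, scaling, weights, variance trend, block and samples. One result of the likeness ranking is not reported here.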

Additional observations from a re-analysis of the deposited data

How the results depend on the processing

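Up to 23 alternatives were run for each result. The count of the 6 genes past the test for LPS in WT cells was 2, and it became 0 with median scaling (19.6% of all genes past), 1 with quantile normalization (20.6%) and 0 with only the samples compared (6.02%), and 2 to 4 over the fits that leave out 1 library (4 without WT LPS replicate 1, with 28.1% of all genes past, or without WT LPS replicate 2, with 48.7%). For LPS in cGAS-/- cells it was 2, and it became 1 with median scaling (13.8% of all genes past), 5 with sample weights (48.3%) and 5 with only the samples compared (44.6%), and 2 to 4 over those fits (4 without WT LPS replicate 3, with 30.8%). For cGAS-/- LPS against WT LPS it was 0, and 0 to 2 over those fits (2 without WT LPS replicate 2, with 27.9%). Sample weights were 0.0352 to 0.346 in WT LPS and 1.38 or more elsewhere.

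The log2 fold changes of genes that did not pass could turn sign, and the cause was not tested. With median scaling the sign turned in the difference of the LPS responses for Mt1 (-0.48), Mt2 (-0.18), Slc30a1 (-0.40), Slc39a1 (-0.022) and Slc39a10 (-0.36), in cGAS-/- against WT with LPS for Mt2 (-0.13), Slc39a1 (-0.19) and Slc39a10 (-0.34), in the LPS response of cGAS-/- cells for Mtf1 (0.17), in WT LPS against WT UT for Slc39a1 (0.52) and in cGAS-/- against WT in UT cells for Slc39a10 (0.015). With quantile normalization the sign turned in cGAS-/- against WT in UT cells for Mt1 (0.032) and Slc39a10 (0.052), in the difference of the LPS responses for Mt1 (-0.27), Mt2 (-0.086), Slc30a1 (-0.26) and Slc39a10 (-0.27), in the LPS response of cGAS-/- cells for Mtf1 (0.21), in WT LPS against WT UT for Mtf1 (0.063) and in cGAS-/- against WT with LPS for Slc39a10 (-0.22). With sample weights the sign turned in the difference of the LPS responses for Mt1 (-1.09) and Mt2 (-1.06), in cGAS-/- against WT with LPS for Mt2 (-1.004) and Slc30a1 (0.023), in the LPS response of cGAS-/- cells for Mtf1 (0.030) and in cGAS-/- against WT in UT cells for Slc39a10 (0.011). With a pseudocount of 5 the sign turned in the difference of the LPS responses for Mt1 (-0.088) and Mt2 (-0.039) and in cGAS-/- against WT with LPS for Mt2 (-0.010). With scaling to a common total the sign turned in cGAS-/- against WT with LPS for Mt1 (0.016) and in cGAS-/- against WT in UT cells for Mt2 (-0.043). Leaving out 1 library gave ranges across 0 in cGAS-/- against WT with LPS for Mt1 (-1.02 to 0.85), Mt2 (-0.93 to 1.28) and Slc39a10 (-0.18 to 0.21), in cGAS-/- against WT in UT cells for Mt1 (-0.078 to 0.015), Mt2 (-0.10 to 0.10), Mtf1 (-0.085 to 0.23) and Slc39a10 (-0.14 to 0.10), in the difference of the LPS responses for Mt1 (-0.98 to 0.89), Mt2 (-0.96 to 1.25), Slc30a1 (-0.27 to 0.25) and Slc39a10 (-0.18 to 0.21) and in the LPS response of cGAS-/- cells for Mtf1 (-0.17 to 0.14). The LPS differences of Slc30a1, Slc39a10, Mt1 and Mt2 did not turn sign in either genotype under the alternatives run, but those of Mt1 and Mt2 in WT cells came to -0.67 and -0.12 with sample weights. The count of the 8 other zinc genes past the test was 4 for LPS in WT cells (1 with only the samples compared, where 6.02% of all genes passed, 5 with median scaling (19.6%), a common total (32.8%) or quantile normalization (20.6%), and 2 to 6 over the fits that leave out 1 library, lowest without WT UT replicate 1 (16.7%) and highest without WT LPS replicate 2 (48.7%)), 3 in cGAS-/- cells (2 with a pseudocount of 0.1 (11% of all genes), the stricter filter (17.7%) or a common total (13.4%), 4 with a pseudocount of 5 (15.4%), 5 with sample weights (48.3%), 6 with only the samples compared (44.6%), and 2 to 4 over the fits that leave out 1 library), 0 between genotypes with LPS (1 with median scaling (4.32% of all genes) or quantile normalization (4.64%), 5 without WT LPS replicate 2, where 27.9% of all genes passed) and 0 for the difference of responses (2 without WT LPS replicate 2, where 12.6% passed). Slc39a8 was not tested under the stricter filter of 5 TPM. Read depth is unknown, so the precision of low genes such as Mtf1 rests on the spread between libraries alone.

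Replicate numbers are shared by the labels but did not pair the samples: the correlation of deviations between same-numbered samples was -0.03 to 0.04 over 18 pairs, with 0 pairs over 0.1. With the replicate block the counts of the 6 genes stayed at 2, 2, 0, 0 and 0 (Slc30a1 adjusted p = 0.00329 in WT and 0.00473 in cGAS-/-), and it changed no call of the 6 genes or of the other zinc genes. The Selenow call in cGAS-/- cells was lost with the block (log2 fold change 2.34, adjusted p = 0.0607).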

Other observations

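By Pearson r of log2(TPM + 1) over the 12 libraries, genes most like each of the 6, as a description only, were Atp6v1f (0.98), Cst3 (0.98) and Slc35b3 (0.98) for Mt1, and Atp6v1f (0.98) and Cst3 (0.98) for Mt2. Cst3 encodes cystatin C, a secreted protease inhibitor, and Atp6v1f a subunit of the vacuolar proton pump. For Slc30a1 they were Trp53inp1 (0.99), Mmd (0.98) and Gm28875 (0.98), and for Slc39a10 they were Nrp1 (0.98), Laptm5 (0.98) and Zmat3 (0.98). Mtf1 was most like Mtr (0.95), Crtc1 (0.94) and Cep83os (0.94), and Slc39a1 most like Cpsf2 (0.93), Baz1b (0.93) and Itpk1 (0.92). The 12 points share 4 groups and their libraries, and the spread of WT LPS enters each r.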
